A study of Homo sapiens with 6 samples.

Results

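Chromosome 19 carries the densest run of zinc finger genes in the human genome, and their transcripts were followed here in A549 cells, a human lung adenocarcinoma line, after silencing of FSCN1, which encodes fascin, a protein that bundles actin filaments. The members were the protein-coding genes on chromosome 19 whose symbol is ZNF followed by a number and at most 1 letter, and 216 of the 30230 genes in the table met that rule. In the control libraries (NC) the cells carried what the labels call a control plasmid and the study's methods a scrambled siRNA. In the siFSCN1 libraries the cells carried siRNA against FSCN1, of which the paper used 1 sequence for RNA-seq out of 3 that it made. With 1 sequence, loss of FSCN1 and other effects of that siRNA cannot be told apart. Each group had 3 poly(A) RNA libraries, all from the same line with no other alteration given. The paper calls the libraries of a group biological replicates. The labels do not say that they came from separate cultures, so p-values measure the spread between these libraries, which may be technical. In bulk RNA, a change in the share of cells that express a gene and a change in its RNA per cell cannot be told apart.

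Most proteins of this family bind DNA through a row of C2H2 zinc fingers, each a short fold held by a zinc ion between paired cysteines and histidines. Many also carry a KRAB domain, which recruits the corepressor TRIM28 (KAP1) and, through it, the H3K9 methyltransferase SETDB1 and the HP1 proteins, so that bound transposable elements and other targets are packed into silent chromatin. The genes arose by tandem duplication and stand in clusters of close relatives.

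The repeat that defines the family is shown for 4 neighbours of the cluster at 43.5 to 44.5 Mb. Each line gives the first unit of the form finger plus linker in the coding exon of a GENCODE transcript (GRCh38), 78 bases long and read 5′ to 3′ on the gene's strand, with the codons of the zinc-binding cysteines and histidines in capitals. The units lie at chr19:44106776-44106853 (ZNF224, + strand), chr19:44176355-44176432 (ZNF226, + strand), chr19:44156800-44156877 (ZNF234, + strand) and chr19:44288397-44288474 (ZNF235, - strand).
ZNF224: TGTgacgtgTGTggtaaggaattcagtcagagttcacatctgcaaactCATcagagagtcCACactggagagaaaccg
ZNF226: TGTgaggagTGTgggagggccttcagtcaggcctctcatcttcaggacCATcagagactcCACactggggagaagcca
ZNF234: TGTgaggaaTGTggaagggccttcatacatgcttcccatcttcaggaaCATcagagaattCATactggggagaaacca
ZNF235: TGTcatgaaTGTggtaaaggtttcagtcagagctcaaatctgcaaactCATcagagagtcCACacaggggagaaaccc
Between pairs of these units, 53 to 66 of the 78 bases were identical. Over the family the encoded proteins held 1 to 31 fingers, with a median of 12, and 170 to 1346 residues, with a median of 595.

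The silenced gene was checked first. FSCN1 was at 44.98, 47.24 and 45.99 FPKM (fragments per kilobase of exon, scaled to library size, as the authors deposited them) in NC and at 4.46, 2.82 and 3.19 FPKM in siFSCN1, a log2 fold change of -3.89 (SE 0.094, edgeR quasi-likelihood adjusted p = 8.1e-16). Fold changes here came from counts scaled by TMM (trimmed mean of M values), which the FPKM values do not carry. TMM factors were 0.933 to 0.942 in NC and 1.05 to 1.08 in siFSCN1, so a fold read from FPKM stands above the fitted one. Library totals ran from 27967301 to 36560919 counts. Epithelial markers (KRT7, KRT8, KRT18, KRT19, EPCAM, CDH1) were at 2.8 FPKM or more in every library, but they moved between groups. The keratins KRT7 (-1.19), KRT8 (-0.88), KRT18 (-0.99) and KRT19 (-1.10) fell, while CDH1 (1.35) and EPCAM (0.29) rose on the log2 scale, each at an edgeR adjusted p of 0.0227 or less. Of the other markers listed for A549 cells, AKR1B10 did not pass (0.001, edgeR adjusted p = 0.979). ALDH1A1 rose by 0.32 (edgeR adjusted p = 2.0e-06). The lung alveolar markers NKX2-1 and SFTPC were at 0.39 FPKM or less, as were PTPRC, CD3E, PECAM1, VWF, DCN and COL1A1. CD14 was the highest of the markers of other cell types, at 2.79 to 2.99 FPKM in NC and 3.86 to 4.82 FPKM in siFSCN1, and rose by 0.40 (SE 0.115, edgeR adjusted p = 0.0053). The part of these markers in the results was not tested.

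The zinc finger genes of chromosome 19 were, as a group, higher after FSCN1 silencing. Of the 216 members, 164 passed the filter on low counts, and 119 of these (72.6%) rose at an edgeR adjusted p under 0.05, against 35.1% of all 17076 genes tested. Only 10 (6.1%) fell, against 33.2% of all genes, and 35 did not pass. With a change of at least 2-fold also required, which is the meaning of a called gene here, 66 members (40.2%) were called higher against 11.7% of all genes, and 1 was called lower against 4.85%. The median log2 fold change was 0.79 over the tested members and 0.03 over all genes. In 123 members (75%) every siFSCN1 library stood above every NC library in CPM (counts scaled to library size after TMM), against 36.8% of all genes, and in 11 the order was the opposite, against 34.4%. The filter could be passed on the counts of 1 group alone, so these counts can include low members admitted only through siFSCN1. ZNF443, called higher, had 9, 6 and 6 counts in NC and 22, 21 and 11 in siFSCN1.

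The 52 members that did not pass the filter held 1 to 59 counts over all 6 libraries, with a median of 11. Their mean CPM was higher in siFSCN1 in 31 and lower in 21, and 10 had no count in any NC library, so they could not be read at this depth. Summed over all 216 members, CPM was 1087, 1069 and 1110 in NC and 1555, 1554 and 1572 in siFSCN1, 1.43 times as high. The spread within each group was small beside that gap, with 1089 ± 20.2 in NC and 1560 ± 9.88 in siFSCN1 (mean ± SD, n = 3).

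The members with the largest rises were named by rule, as the 10 called members with the largest fold among those with non-overlapping libraries and at least 1 FPKM in the higher group. ZNF548 (chr19:57389850-57402992, + strand) was at 0.17, 0.15 and 0.29 FPKM in NC and at 1.21, 1.22 and 1.00 FPKM in siFSCN1. Its log2 fold change was 2.29 (SE 0.18, edgeR adjusted p = 2.5e-09). ZNF302 (chr19:34677639-34686397, + strand) had the highest level of the 10, at 1.66, 1.81 and 2.03 FPKM in NC and 7.05, 6.96 and 7.90 FPKM in siFSCN1. Its log2 fold change was 1.82 (SE 0.069, edgeR adjusted p = 1.2e-13).

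ZNF224, a KRAB repressor known to bind the aldolase A promoter, was at 0.47, 0.53 and 0.54 FPKM in NC and 2.05, 2.03 and 2.23 FPKM in siFSCN1. Its log2 fold change was 1.86 (SE 0.107, edgeR adjusted p = 3.0e-11). ZNF226, its neighbour, went from 0.90, 0.92 and 1.13 FPKM to 3.23, 3.48 and 3.52 FPKM, a log2 fold change of 1.62 (SE 0.086). ZNF235, whose finger unit shares 66 of 78 bases with that of ZNF224, went from 0.45, 0.40 and 0.40 FPKM to 1.30, 1.38 and 1.38 FPKM, a log2 fold change of 1.54 (SE 0.119). ZNF112 was the most uneven of these neighbours in NC, at 0.16, 0.18 and 0.37 FPKM, and stood at 0.91, 0.99 and 1.10 FPKM in siFSCN1, with a log2 fold change of 1.86 (SE 0.223). The naming rule required non-overlapping libraries, so the gap between groups in these 4 was set by the choice and is not a result.

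The other 4 lay in other clusters. ZNF559 went from 0.22, 0.31 and 0.31 FPKM to 1.15, 1.06 and 1.24 FPKM (log2 fold change 1.87, SE 0.14). ZNF875 went from 0.75, 0.99 and 0.97 FPKM to 3.12, 2.95 and 3.24 FPKM (1.62, SE 0.09). ZNF550 and ZNF558 had log2 fold changes of 1.58 (SE 0.157) and 1.56 (SE 0.107). For these 4 the edgeR adjusted p ran from 2.0e-11 (ZNF875) to 5.9e-08 (ZNF550). A further 40 called members were below 1 FPKM in both groups, and 13 of these had a fold at least as large as the smallest of the 10. The highest, singled out after their values were seen, were ZNF229 at 2.10 (SE 0.155), ZNF606 at 2.07 (SE 0.183) and ZNF285 at 2.04 (SE 0.173), each with an edgeR adjusted p of 1.2e-08 or less.

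**Figure D1:**
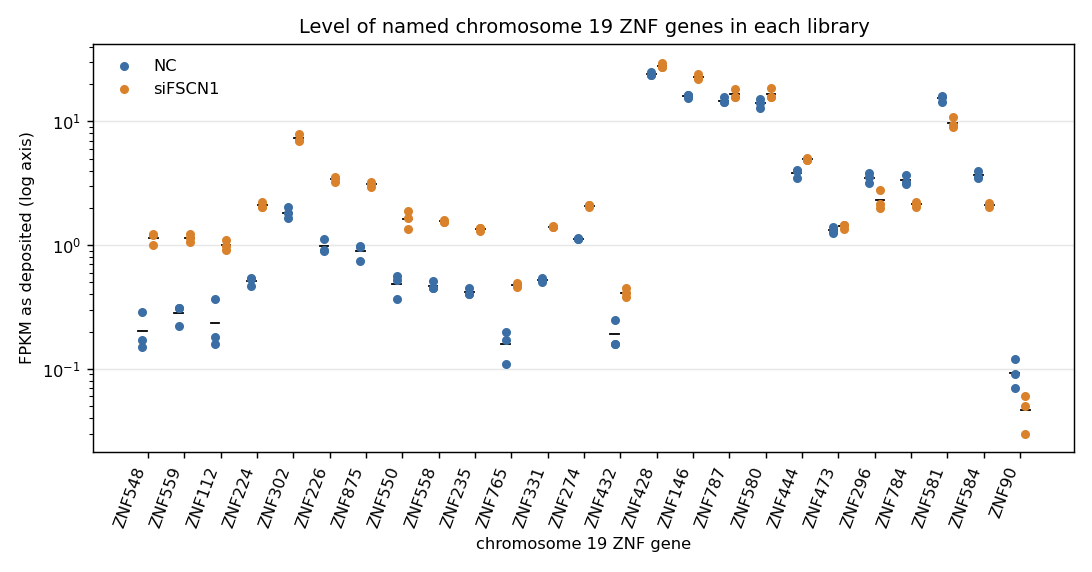
Deposited FPKM (log axis) of named chromosome 19 ZNF genes in the 3 NC and 3 siFSCN1 libraries, 1 point a library, with group means as black bars. ZNF548 rose from 0.15 to 0.29 FPKM in NC to 1.00 to 1.22 FPKM in siFSCN1, while the most abundant member, ZNF428, did not pass the test and ZNF581 and ZNF584 were lower.

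The falls were few. ZNF90 was called lower, at 0.09, 0.12 and 0.07 FPKM in NC and 0.03, 0.05 and 0.06 FPKM in siFSCN1 (log2 fold change -1.11, SE 0.366, edgeR adjusted p = 0.0119). That call was lost without NC replicate 2 (-0.93) and without siFSCN1 replicate 1 (-0.94). ZNF584 had 3.48, 3.54 and 3.95 FPKM in NC and 2.19, 2.03 and 2.11 FPKM in siFSCN1, a log2 fold change of -0.96 (SE 0.094, edgeR adjusted p = 4.9e-08). ZNF581 had 14.46, 15.60 and 15.94 FPKM in NC and 10.88, 9.26 and 9.05 FPKM in siFSCN1, a log2 fold change of -0.82 (SE 0.064, edgeR adjusted p = 2.3e-09). ZNF581 shares part of its span with ZNF580 on the same strand, and ZNF580 did not pass the test (0.08, edgeR adjusted p = 0.302). The other members that fell, with log2 fold changes from -0.82 to -0.37, were ZNF784, ZNF296, ZNF653, ZNF114, ZNF101, ZNF576 and ZNF574.

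Members with a described role mostly moved with the group. ZNF274, which recruits SETDB1 to the 3′ ends of zinc finger genes, had 1.12, 1.15 and 1.12 FPKM in NC and 2.09, 2.09 and 2.02 FPKM in siFSCN1 (log2 fold change 0.71, SE 0.076, edgeR adjusted p = 1.8e-07). ZNF331, an imprinted gene, had 0.54, 0.50 and 0.52 FPKM in NC and 1.42, 1.39 and 1.4 FPKM in siFSCN1 (1.27, SE 0.103). ZNF765 rose by 1.39 (SE 0.157) and ZNF432 by 0.96 (SE 0.204, edgeR adjusted p = 4.1e-04), the latter just short of the 2-fold limit. ZNF146, which consists of fingers alone, was among the most abundant members, with 15.56, 16.24 and 16.24 FPKM in NC and 22.27, 21.88 and 24.00 FPKM in siFSCN1 (0.34, SE 0.046, edgeR adjusted p = 3.3e-06). ZNF444, which carries a SCAN domain, rose by 0.21 (SE 0.058). ZNF473, a factor of histone pre-mRNA processing, had a log2 fold change of -0.04 (edgeR adjusted p = 0.701), and ZNF296 fell by 0.77 (SE 0.133). Of the 15 genes on the list, 13 were in the table and 9 were tested, of which 7 rose and 1 fell. ZNF91, ZNF649, ZNF382 and ZNF808 were below the filter, and ZNF93 and ZNF676 were not analysed here.

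Of the 4 most abundant members only ZNF146 passed the test. ZNF428 had 23.56, 23.58 and 24.92 FPKM in NC and 29.88, 27.39 and 27.43 FPKM in siFSCN1, with a log2 fold change of 0.07 on the TMM scale (edgeR adjusted p = 0.256). ZNF787 (0.01, edgeR adjusted p = 0.905) and ZNF580 likewise did not pass. Among the tested members 108 were below 1 FPKM, 46 between 1 and 5 FPKM and 10 at 5 FPKM or more. At the 2-fold limit, ZNF569 stood just above with a log2 fold change of 1.01 and ZNF699 just below with 1.00.

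Genes of low level were higher in siFSCN1 across the whole table, so the members were set beside others of like level. Among genes up to 0.5 FPKM the median log2 fold change was 1.02 over 60 members, 0.73 over 57 ZNF genes on other chromosomes, 0.49 over 124 other protein-coding genes of chromosome 19 and 0.48 over all 3942 genes. From 1 to 2 FPKM the medians were 0.77, 0.40, 0.04 and 0.12, over 29, 57, 88 and 2442 genes. Above 5 FPKM they were 0.07, -0.14, -0.32 and -0.22, over 10, 22, 404 and 5317 genes. The members had the highest median in each of the 5 ranges. In the lowest range, genes of every set could pass the filter through siFSCN1 alone. With the trend of counts on abundance removed for each library, 44 of the 164 members (26.8%) were called higher, against 7.72% of all genes, and their median was 0.60.

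**Figure D2:**
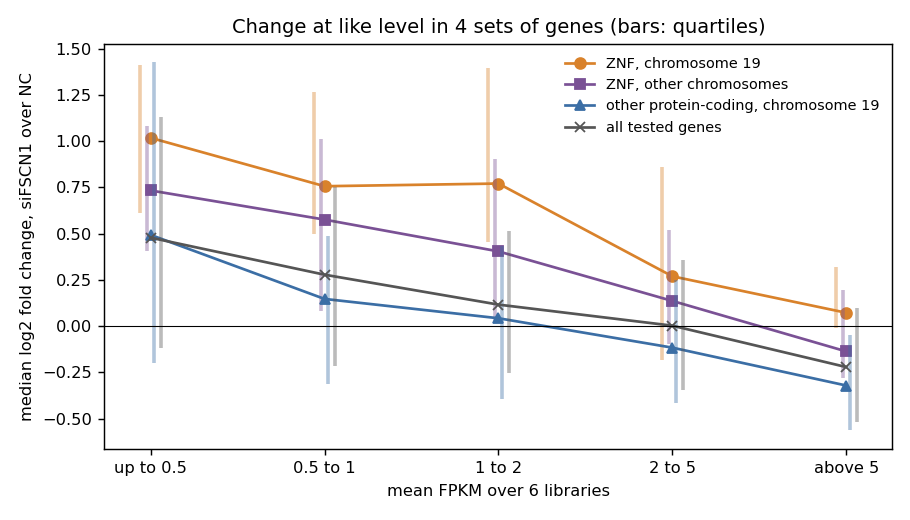
Median log2 fold change (siFSCN1 over NC) by mean FPKM over the 6 libraries, for ZNF genes of chromosome 19, ZNF genes on other chromosomes, other protein-coding genes of chromosome 19 and all tested genes, with quartiles as bars. The chromosome 19 ZNF genes run from 1.02 at the lowest level to 0.07 at the highest and stand above the other sets in every range.

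ZNF genes elsewhere in the genome also rose more often than all genes, with a lower median than the members. Of the 241 on other chromosomes, 229 were tested, with a median log2 fold change of 0.43. Of these 50 (21.8%) were called higher and 2 lower, against 11.7% and 4.85% of all genes. At an edgeR adjusted p under 0.05, 131 (57.2%) rose and 31 (13.5%) fell, against 35.1% and 33.2% of all genes. Their summed CPM was 1.18 times as high in siFSCN1. ZNF239 (1.86) and ZNF248 (1.79) had the largest rises by the same rule, and ZNF511 (-1.17) and ZNF593 (-1.06) the largest falls, calls that were lost in 4 and 6 alternative settings. The other protein-coding genes of chromosome 19 were set apart by symbol alone, so they can include zinc finger genes under other names. They moved the other way on balance. Of 819 tested, 220 (26.9%) rose and 403 (49.2%) fell, with a median of -0.17, and 72 (8.79%) were called higher. No test of the difference between these sets of genes was run. They also differed in composition, with a median transcript GC content of 43.1% in the members, 45.0% in ZNF genes elsewhere and 60.2% in the other genes of chromosome 19. With the trends on abundance, exonic length and GC removed together, 36 members (22.0%) were called higher, against 11.8% of ZNF genes elsewhere and 7.14% of all genes.

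The rise was uneven along the chromosome. Neighbouring members less than 500 kb apart formed 11 clusters of at least 5, which held 203 of the 216. Over all tested members 72.6% rose and 40.2% were called higher, against 35.1% and 11.7% of all genes. In the cluster at 36.2 to 37.8 Mb all 20 tested members rose, with a median log2 fold change of 1.10, and 14 were called higher. In that at 43.5 to 44.5 Mb, which holds ZNF224 and ZNF226, 19 of 23 rose with a median of 1.39, the highest of the clusters, and 1 fell. At 51.6 to 53.6 Mb 15 of 17 rose (median 1.08), and in the largest cluster, at 57.2 to 58.5 Mb, 32 of 39 rose (median 0.87). At 34.7 to 35 Mb 4 of 5 rose (median 0.80), and at 8.5 to 9.8 Mb 9 of 11 rose (median 0.56).

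Other protein-coding genes were set apart by symbol alone, so zinc finger genes under other names can be among them. The few within these spans gave no single picture, beside 35.1% of all genes that rose and 33.2% that fell. Their median was 1.55 at 8.5 to 9.8 Mb, where 3 of 3 rose, 0.75 at 36.2 to 37.8 Mb, where 3 of 4 rose, and 1.68 at 51.6 to 53.6 Mb, where 2 of 3 rose and 1 fell. It was 0.01 at 43.5 to 44.5 Mb, where 3 of 8 rose and 3 fell, 0.12 at 57.2 to 58.5 Mb, where 4 of 10 rose and 2 fell, 0.17 at 55.5 to 56.6 Mb, where 5 of 10 rose and 4 fell, and -0.13 at 11.5 to 12.6 Mb, where none of 4 rose and 2 fell.

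The other clusters had medians of about 0.5 or less, and differences between clusters were not tested. Their counts stand beside 35.1% of all genes that rose and 33.2% that fell. At 2.8 to 2.9 Mb 2 of 4 rose (median 0.51), and at 11.5 to 12.6 Mb 4 of 9 rose and 1 fell (median 0.48). At 19.7 to 21.9 Mb only 8 of 17 members passed the filter, of which 2 rose and 2 fell (median 0.25), and at 23.2 to 24.1 Mb 3 of 6 passed, with none past the edgeR threshold and 1 at an unadjusted p under 0.05 (log2 fold changes 0.11 to 0.36). These clusters hold ZNF90 and ZNF91. At 55.5 to 56.6 Mb the median was 0.21 over 13 members, of which 7 rose and 2 fell, and whose median level of 4.37 FPKM was the highest of the clusters. The 12 tested members outside clusters had a median of -0.01, with 5 that rose and 3 that fell.

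**Figure D3:**
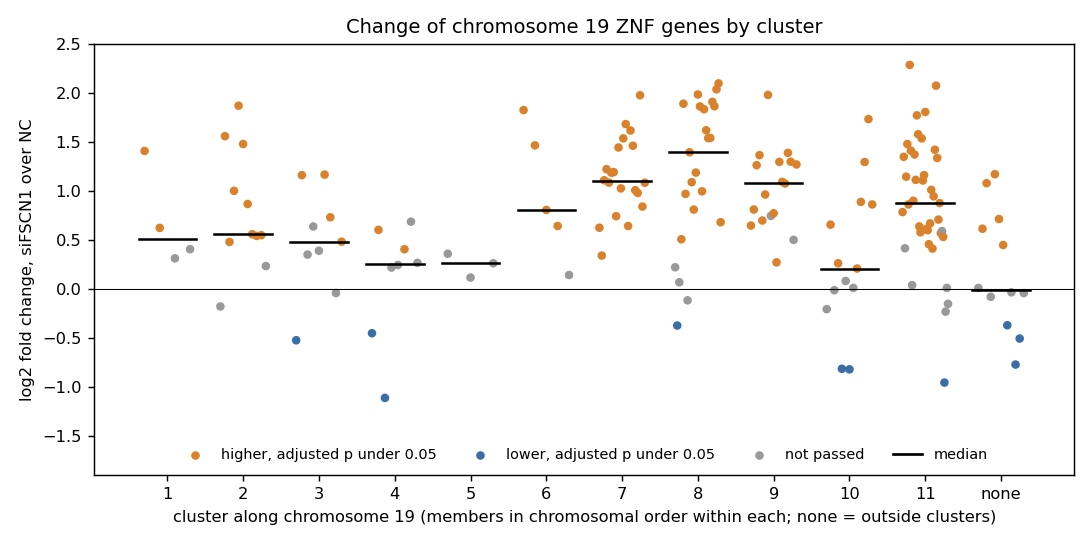
Log2 fold change (siFSCN1 over NC) of the 164 tested members in 11 clusters numbered along chromosome 19, with members outside clusters at the right. Each point is a gene, coloured by whether it passed an edgeR adjusted p of 0.05, and black bars are medians. Cluster 7 (36.2 to 37.8 Mb) lies wholly above 0 and cluster 8 (43.5 to 44.5 Mb) has the highest median, 1.39.

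Members that encode few fingers had lower fold changes. Among the 11 tested members with 1 to 5 fingers the median log2 fold change was -0.15, none was called, 2 rose (18.2%) and 4 fell (36.4%). The medians were 0.63 over 36 members with 6 to 9 fingers, 0.86 over 60 with 10 to 13 and 0.88 over 34 with 14 to 17. Over 23 with 18 or more the median was 1.08, and 15 of these (65.2%) were called higher. Over all genes 11.7% were called higher, 35.1% rose and 33.2% fell. The members with few fingers also had the higher level (median 4.37 FPKM) and GC content (59.6%), and the part of these in the result was not tested.

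The KRAB domain was searched as a sequence pattern, which finds only some true domains. A strict pattern matched 65 tested members, of which 51 (78.5%) rose (median 0.86, 26 or 40% called higher). A looser one alone matched 50 more, of which 39 (78%) rose (median 0.85, 22 or 44% called higher). Neither matched 49, of which 29 (59.2%) rose (median 0.59, 18 or 36.7% called higher). These 49 include known KRAB proteins such as ZNF224, so they are not a set without KRAB. The called shares lay near the 40.2% of all tested members, against 11.7% of all genes. Over all tested members 72.6% rose, and over all genes 35.1%. Members with the strict pattern had a median 0.12 above the others, and that difference changed sign with limma on FPKM values (-0.05 with either pseudocount).

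**Figure D4:**
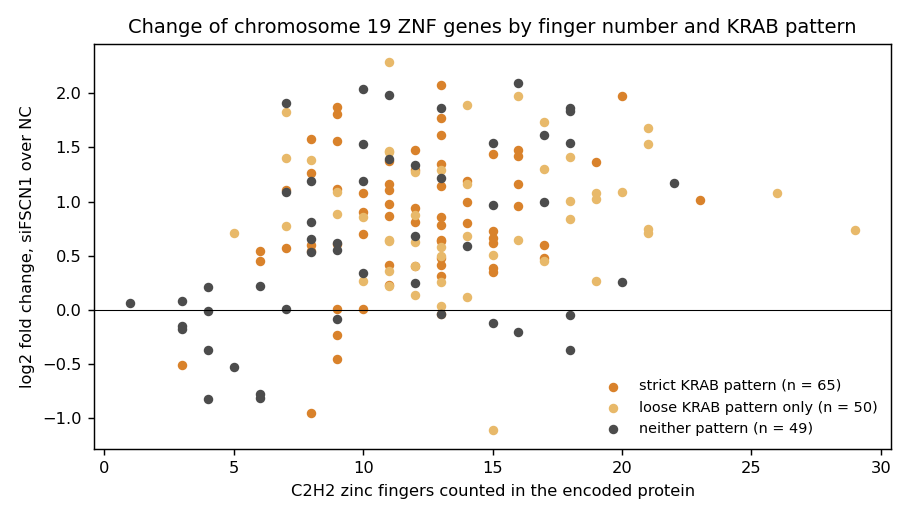
Log2 fold change (siFSCN1 over NC) of each tested member against the number of C2H2 fingers in its encoded protein, coloured by KRAB pattern (65 strict, 50 looser only, 49 neither). Members with up to 5 fingers lie mostly below 0 (median -0.15), and those with 18 or more have a median of 1.08.

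Promoter windows of the members held letters of the binding site of ETS factors more often than those of the other sets. Windows from 250 bases before to 50 after the start (RefSeq, GRCh38.p14) were found for 193 members, 241 windows in all, and searched on both strands. CCGGAAGT stood in 46 windows (19.1%), against 12.9% for ZNF genes elsewhere, 7.07% for tested protein-coding genes and 4.14% of all promoters. These are shares of windows, not of genes, and windows of 1 gene can overlap and hold the same site, as for ZNF875. CCAAT stood in 48.1%, against 39.3%, 34.4% and 34.6% in the same 3 sets. TGACGTCA, the cyclic AMP response element, stood in 4.15%, against 3.31%, 2.7% and 1.85%. The CGCG box was rare, in 0.83% against 0.368%, 0.76% and 0.424%. The core of the ZNF143 site stood in 1.24%, against 1.84% for ZNF genes elsewhere, 0.428% for tested protein-coding genes and 0.231% of all promoters. None of these motifs contains another. Promoters of ZNF226 and ZNF274, with 1 and 2 ETS matches, and of ZNF548, the member with the largest rise and no match, are printed 5′ to 3′ on the gene's strand with matches on either strand in capitals. They lie at chr19:44164850-44165149, chr19:58182811-58183110 and chr19:57389604-57389903, all on the + strand.
ZNF226: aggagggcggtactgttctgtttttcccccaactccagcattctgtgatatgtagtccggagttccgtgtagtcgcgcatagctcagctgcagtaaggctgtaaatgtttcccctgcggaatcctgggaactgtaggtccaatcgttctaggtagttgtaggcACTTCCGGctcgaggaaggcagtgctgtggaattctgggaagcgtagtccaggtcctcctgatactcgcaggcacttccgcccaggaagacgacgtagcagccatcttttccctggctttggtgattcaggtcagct
ZNF274: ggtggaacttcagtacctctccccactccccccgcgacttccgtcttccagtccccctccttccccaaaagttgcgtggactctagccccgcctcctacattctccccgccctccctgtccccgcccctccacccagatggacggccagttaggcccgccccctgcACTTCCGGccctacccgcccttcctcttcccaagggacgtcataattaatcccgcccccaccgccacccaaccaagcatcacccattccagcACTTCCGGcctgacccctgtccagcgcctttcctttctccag
ZNF548: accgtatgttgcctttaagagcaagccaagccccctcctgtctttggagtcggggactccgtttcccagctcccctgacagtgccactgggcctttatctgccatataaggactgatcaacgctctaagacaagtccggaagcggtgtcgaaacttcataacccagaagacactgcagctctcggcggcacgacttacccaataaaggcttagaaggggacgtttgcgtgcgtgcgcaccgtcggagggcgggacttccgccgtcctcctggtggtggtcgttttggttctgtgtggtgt
The 41 tested members with a match in any window had a median log2 fold change of 0.81, with 36 (87.8%) that rose and 19 (46.3%) called higher. The 109 without one had a median of 0.74, with 73 (67%) that rose and 41 (37.6%) called higher. Over all tested members 72.6% rose and 40.2% were called higher, and over all genes 35.1% and 11.7%. A match describes the letters and is not evidence of binding.

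Genes for the partners of the KRAB domain were split in direction, in shares near those of all genes. Of 29 cofactor and heterochromatin genes, all tested, 12 (41.4%) rose, 11 (37.9%) fell and 6 did not pass (edgeR adjusted p), against 35.1% and 33.2% of all genes, with a median log2 fold change of -0.02. None was called higher and 2 were called lower, against 11.7% and 4.85% of all genes. However, CHD3 passed 2-fold in 4 alternative settings and DNMT3A in 2, and the calls of MTA2 and UHRF1 were each lost in 1. TRIM28, the corepressor, had 123.76, 126.25 and 128.10 FPKM in NC and 95.19, 89.53 and 85.83 FPKM in siFSCN1, a log2 fold change of -0.65 (SE 0.038, edgeR adjusted p = 4.6e-11). The size of that fall depended on the processing, at -0.46 with library totals, -0.33 with the abundance trend removed and -0.21 with the abundance, length and GC trends removed. SETDB1, its methyltransferase partner, had 2.52, 2.52 and 2.63 FPKM in NC and 3.80, 3.29 and 3.74 FPKM in siFSCN1 (0.33, SE 0.057, edgeR adjusted p = 5.2e-05). The groups did not overlap in either gene.

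Among the HP1 genes CBX1 rose by 0.45 (SE 0.047), CBX5 did not pass (-0.02, edgeR adjusted p = 0.677), and CBX3 fell by 0.09, a direction that reversed when scaled by library totals (0.09). Of the NuRD subunits, the remodeller CHD3 rose by 0.87 (SE 0.047), MTA2 fell by 1.26 (SE 0.043) and the deacetylase HDAC2 fell by 0.49 (SE 0.059). HDAC1 (-0.07), RBBP4 (0.08) and RBBP7 (-0.08), also of NuRD, did not pass (edgeR adjusted p = 0.187, 0.0845 and 0.0757). The DNA methyltransferases were split, with DNMT3A at 0.91 and DNMT3B at 0.65 against DNMT1 at -0.71. UHRF1, which brings DNMT1 to replicated DNA, fell by 1.26 (SE 0.057). Of the HUSH complex, TASOR rose by 0.33 (SE 0.056) and MPHOSPH8 by 0.19 (SE 0.067), while PPHLN1 did not pass (-0.06, edgeR adjusted p = 0.245). ATRX, a chromatin remodeller, rose by 0.73 (SE 0.082).

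**Figure D5:**
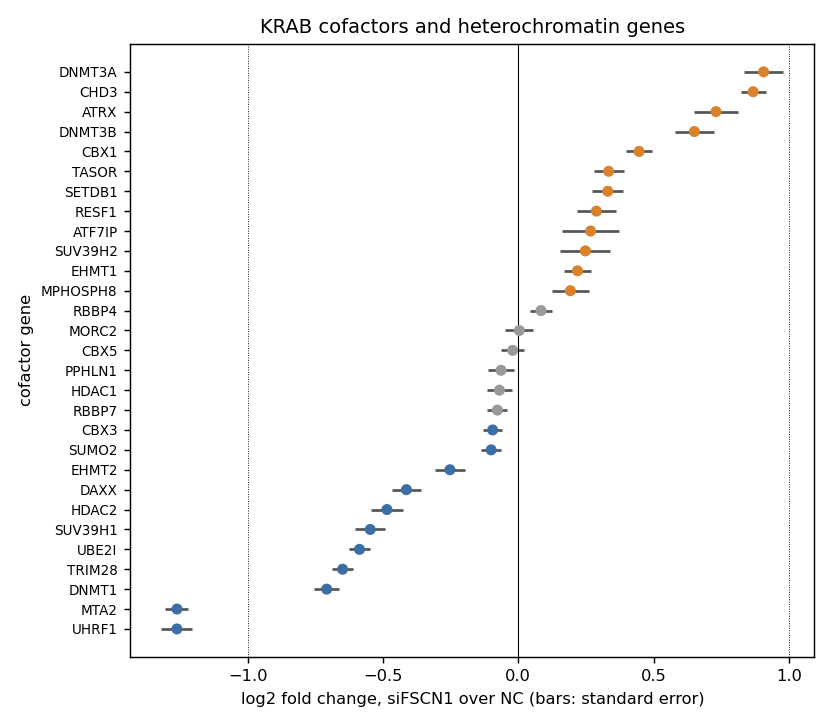
Log2 fold change (siFSCN1 over NC) with standard error for 29 KRAB cofactor and heterochromatin genes, orange where higher and blue where lower at an edgeR adjusted p under 0.05, grey where not passed. Dotted lines mark 2-fold. MTA2 and UHRF1, both at -1.26, are beyond it, and TRIM28 is at -0.65.

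Shared sequence and overlapping genes limit some of these counts. Of the tested members 145 had no 150-base exonic window in common with another member, and 57 of these were called higher with a median of 0.78. The 3 with over 10% of windows shared were ZNF417, ZNF324 and ZNF446. Another gene overlapped 68 tested members on the same strand and 87 on the opposite one, and 46 had no overlap, of which 19 were called higher with a median of 0.74. Over all 164 tested members 66 (40.2%) were called higher with a median of 0.79, against 11.7% of all genes.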

How the data were processed

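The authors deposited 2 tables of expressed genes, 1 of read counts and 1 of FPKM values, for each of 6 poly(A) RNA-seq libraries (3 NC, 3 siFSCN1). The counts are whole reads per gene, not normalized. The deposited FPKM values are the authors' counts scaled by gene length and library size, used here for levels only. The study's methods name HISAT2 and the submitters' processing notes name TopHat2 and bcl2fastq, with build GRCh38. Library preparation was strand-specific per the labels, but the strand setting of the counting and the annotation release were not given in the sources used here.

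Groups came from the labels. Counts were tested with edgeR 4.0.16 (filterByExpr, TMM, quasi-likelihood) on all 6 libraries in R 4.3.3, in place of the study's DESeq2, with Benjamini-Hochberg adjustment over 17076 genes. Calls needed an adjusted p under 0.05 and at least 2-fold. Scripts were tested on simulated data. Alternatives were other scalings and filters, DESeq2 1.42.0, glmTreat, limma 3.58.1 on log2(FPKM + 0.1) and log2(FPKM + 1), removal of trends, a replicate block and each library left out. Replicate numbers were checked as a pairing and gave none (correlations -0.03, 0.04 and -0.08).

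The members and gene lists were chosen with earlier results of these data known. Named members were the 10 largest rises and falls among called members with non-overlapping CPM and at least 1 FPKM in the higher group (no fall met this), the 4 most abundant, 15 with a described role, the nearest to 2-fold on either side, and the 2 largest rises and falls among ZNF genes elsewhere. Other falls were named after their values were seen. Fingers and KRAB patterns were read from translated GENCODE v44 coding sequences.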

Additional observations from a re-analysis of the deposited data

How the results depend on the processing

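A value counted as moved when it changed by more than the SD over the siFSCN1 libraries, or a count by more than 1.5 times. The number called higher (66) was 61 to 69 with 1 library left out (36.1% to 41.8%, against 11.4% to 12.2% of all genes). It was 64, 74 and 79 with RLE, upper quartile and total scaling (39.0%, 45.1% and 48.2%, against 11.3%, 13.8% and 15.4%). With DESeq2 it was 61 of 216 (28.2%), against 6.52% of all genes. It was 53 (32.3%, against 9.29%) and 6 (3.66%, against 1.67%) with limma on log2(FPKM + 0.1) and log2(FPKM + 1). With glmTreat it was 33 (20.1%, against 4.53%). With the abundance trend removed it was 44 (26.8%, against 7.72%). With the abundance, length and GC trends removed, a setting chosen after seeing the data, it was 36 (22.0%, against 7.14%). The number called lower (1) was 0 with upper quartile or total scaling, the stricter filter, glmTreat and limma with either pseudocount, 2 with no filter, with the abundance trend removed or with all 3 trends removed, and 0 to 1 with 1 library left out. The median log2 fold change (0.79) was 0.78 (RLE), 0.91 (upper quartile), 0.98 (totals), 0.71 (DESeq2), 0.73 (no filter), 0.84 (stricter filter), 0.76 and 0.32 (limma, lower and higher pseudocount), 0.60 (abundance trend) and 0.46 (3 trends), and 0.74 to 0.83 with 1 library left out. Upper quartile and total scaling moved the median of all genes from 0.03 to 0.15 and 0.22. Relative to all genes (0.76) it was 0.59 (DESeq2), 0.59 (no filter), 0.81 (stricter filter), 0.58 and 0.24 (limma), 0.60 (abundance trend) and 0.47 (3 trends), and 0.72 to 0.79 with 1 library left out. Relative to ZNF genes elsewhere (0.36) it was 0.30, 0.29, 0.38, 0.26, 0.11, 0.33 and 0.23 in that order, and 0.33 to 0.40 with 1 library left out. The difference by strict KRAB pattern (0.12) was 0.16 (stricter filter), -0.053 and -0.048 (limma), 0.022 (abundance trend), -0.080 (3 trends) and 0.25 (looser pattern), and 0.064 to 0.20 with 1 library left out. The causes of these shifts were not tested. Cofactors that passed the main test reversed as follows. CBX3 was at 0.023 (upper quartile), 0.092 (totals), 0.072 and 0.070 (limma), 0.18 (abundance trend) and 0.11 (3 trends), SUMO2 at 0.018, 0.087, 0.066, 0.064, 0.14 and 0.14, and ATF7IP at -0.013 (3 trends). Over 57 named genes, 956 of 1025 values were counted as the same, 16 as stronger, 40 as weaker and 13 as reversed. A change of sign in genes that did not pass the main test was not counted as a reversal. Such genes included HDAC1 (-0.11 to 0.14 over the alternatives), RBBP7 (-0.11 to 0.18), PPHLN1 (-0.11 to 0.12), CBX5 (-0.07 to 0.21), MORC2 (-0.05 to 0.19), ZNF473 (-0.18 to 0.14) and ZNF787 (-0.07 to 0.32). Of the 10 largest rises, 6 fell short of 2-fold with limma on log2(FPKM + 1). The replicate block gave 66 called higher, and same-numbered libraries correlated at -0.03, 0.04 and -0.08 in their deviations, so the numbers did not pair them. A gap of 250 kb gave 13 clusters in place of 11. Depth limits the 52 untested members.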
